A study of Mus musculus with 30 samples.

Results

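The first day of culture of mouse limb mesenchyme was examined by setting 6 control arrays of day 1 against 6 control arrays of day 0, out of 30 arrays in the series. All cells came from limb buds of CD-1 mouse embryos labelled E10.5 (days after conception) and were hybridised to Affymetrix mouse genome arrays. Each day held 3 populations with 2 arrays each: distal hindlimb (early in the labels), distal forelimb (intermediate) and proximal forelimb (late). The tissue had been dissociated with proteases, strained to single cells and plated in small, dense drops that were left to attach for about an hour before medium with serum was added, and that moment was day 0. Neither day had any added factor, and every culture pooled cells of many embryos. The other 18 arrays (control medium at day 2, and 20 ng/ml BMP4 at days 1 and 2) do not enter the main fit. They give levels beside the comparison, and they count in the choice of genes and probe sets and in an alternative fit. The titles number the 2 arrays of a group as separate biological samples without naming their embryos, so a p-value measures the spread between these arrays.

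Limb mesenchyme is the loose tissue of the limb bud, and part of it condenses and turns into cartilage. Its outgrowth in the embryo is kept going by fibroblast growth factors from the apical ridge, a strip of ectoderm at the tip, and by sonic hedgehog from the posterior margin. The bud also holds muscle precursors, blood vessels with red blood cells, nerve and a covering of ectoderm. When such cells are packed densely in a dish they begin to form cartilage without an added factor, and cells that attach to plastic also assemble actin filaments and focal adhesions. Serum response factor, which binds the CArG box (CC, then 6 bases of A or T, then GG), drives both quickly induced growth genes and genes of the contractile apparatus.

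Levels are given as log2(signal + 16), where 4 is the level of a probe set without signal, and a change is the day 1 mean minus the day 0 mean on that scale. The constant understates the change of dim genes. A gene is said to have risen or fallen when limma's adjusted p was below 0.05, over 15139 genes tested. By that rule 3322 genes (21.9%) rose and 2592 (17.1%) fell, 684 and 220 of them by at least 1. On 2015 genes (13.3%) all 6 day 1 arrays lay above all 6 day 0 arrays, and on 1335 (8.82%) all lay below. The median change over all genes tested was -0.004. So many genes moved that a count within a gene list has to be read against these shares.

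The labels of 3 day 0 arrays, replicate 2 of each population, are in doubt, which is why the populations were pooled. On these arrays the hindlimb factor Pitx1 was at 9.43 in the array labelled intermediate 2 and at 5.90 in the array labelled early 2, against 9.74 in early 1 and 6.15 in intermediate 1. The forelimb factor Tbx5 was at 4.68 in the array labelled intermediate 2 and at 8.50 in the array labelled early 2. The proximal factor Meis2 was at 7.53 in the array labelled late 2, against 9.60 in late 1. A mix-up among populations leaves each of these arrays at day 0, so the pooled comparison keeps all 12 arrays. Without the 3 arrays 2559 genes (16.9%) rose and 1872 (12.4%) fell.

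The defining markers of limb mesenchyme were present on both days: Prrx1, Prrx2, Twist1 and Pdgfra were above the 40th percentile of their array on all 12 arrays. So were markers of other cell types, Csf1r, Sox10, Kdr, Epcam and Myod1 among them, so this measure does not rank the tissues. Correlation between arrays over the tested genes was 0.972 to 0.984 within day 0, 0.963 to 0.983 within day 1, and 0.915 to 0.95 between the days. Median signal was 35.5 to 44.9 at day 0 and 34.6 to 40.6 at day 1. The 3' minus 5' value of the Gapdh control probe sets, a sign of RNA quality, was -0.292 to -0.194 at day 0 and -0.407 to -0.22 at day 1 (exact permutation test, two-sided p = 0.039). Its part in the results below was not tested.

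The largest rise of any gene was that of the smooth muscle gene Tagln, which codes for the actin-bundling protein transgelin. Tagln was at 4.85 to 6.44 at day 0 (median 5.87) and at 10.98 to 11.88 at day 1 (median 11.55), a rise of 5.76 (SE 0.21, adjusted p = 3.41e-10). Smooth muscle actin Acta2 went from 7.85 to 8.67 at day 0 (median 8.12) to 12.19 to 12.44 at day 1 (median 12.30), a rise of 4.14 (SE 0.12, adjusted p = 3.44e-11). Its 6 values spanned less at day 1 than at day 0. The actin-binding regulator Cnn1 was at 4.08 to 4.47 at day 0 (median 4.21), at or near no signal, and at 7.5 to 9.03 at day 1 (median 8.01). The regulatory light chain Myl9 rose by 3.76 (SE 0.19, adjusted p = 4.13e-09) and the enteric actin Actg2 by 1.68 (SE 0.21, adjusted p = 1.74e-05). Of 14 tested smooth muscle genes 11 rose and 0 fell, with a median change of 1.60. Myh11, the myosin heavy chain of mature smooth muscle, was at 4.18 to 4.90 at day 0 and at 4.25 to 4.94 at day 1, below the 40th percentile on all 12 arrays. The contractile genes of smooth muscle were thus high at day 1 without its defining myosin.

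The same direction was seen in the genes that serum response factor and the YAP coactivator are known to drive, 14 of which rose and 2 fell out of 20 tested (median 0.77). The matricellular growth regulator Ccn2, a YAP target, was at 8.41 to 8.97 at day 0 (median 8.89) and at 10.60 to 11.45 at day 1 (median 10.96), with no overlap (adjusted p = 2.47e-08). The filament stabiliser Tpm1 rose by 2.51 (SE 0.14, adjusted p = 1.23e-08), and the vinculin gene Vcl, which links actin to adhesions, by 0.85 (SE 0.10, adjusted p = 5.22e-06). The members that fell were Srf itself and Amotl2, an inhibitor of YAP. Srf was at 9.55 to 9.93 at day 0 (median 9.81) and at 8.21 to 8.49 at day 1 (median 8.43), a change of -1.38 (SE 0.07, adjusted p = 7.75e-09). Every day 1 value of Srf lay below every day 0 value while most of the listed targets were higher.

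The promoters below are shown because their genes belong to these lists or, for Actc1 and Acta1, to the skeletal muscle list, hold a CArG box near the start of transcription, and moved in both directions. The sequences come from RefSeq, assembly GRCm38.p6, read 5′ to 3′ on the strand of the gene, and capitals mark the CArG box. They lie at chr2:114052868-114052967 (minus strand) for Actc1, chr8:123894794-123894893 (minus) for Acta1, chr2:156775258-156775357 (plus) for Myl9, chr16:57549135-57549234 (plus) for Filip1l, chr14:20929148-20929225 (plus) for Vcl and chr17:46556190-46556289 (minus) for Srf. All marked boxes lie upstream of the annotated start of a transcript. The Actc1 sequence runs a few bases past that start, and the other sequences end before it.
Actc1: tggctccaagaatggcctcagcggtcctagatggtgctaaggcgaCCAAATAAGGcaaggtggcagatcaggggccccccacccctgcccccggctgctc
Acta1: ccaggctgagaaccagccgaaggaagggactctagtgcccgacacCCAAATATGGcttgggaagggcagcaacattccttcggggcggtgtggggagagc
Myl9: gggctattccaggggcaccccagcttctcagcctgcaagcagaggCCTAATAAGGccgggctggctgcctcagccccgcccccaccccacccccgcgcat
Filip1l: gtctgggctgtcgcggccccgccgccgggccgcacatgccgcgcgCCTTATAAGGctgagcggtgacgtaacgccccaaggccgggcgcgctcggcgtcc
Vcl: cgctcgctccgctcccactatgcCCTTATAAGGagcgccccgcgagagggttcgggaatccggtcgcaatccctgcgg
Srf: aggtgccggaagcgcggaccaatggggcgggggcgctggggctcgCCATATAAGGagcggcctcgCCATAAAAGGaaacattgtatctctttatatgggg

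The first box begins 47 bases before the start in Actc1, 73 in Acta1, 161 in Myl9, 62 in Filip1l and 227 in Vcl, and Srf holds 2 boxes. Of these 6 genes Srf fell and the others rose, Actc1 by 4.13, Myl9 by 3.76, Acta1 by 3.27, Filip1l by 2.24 and Vcl by 0.85. Cnn2, Egr2 and Zfp36, also members of the lists, hold a box too and are not shown. Of them Cnn2 rose, Egr2 fell and Zfp36 did not pass the threshold. Windows of 250 bases before to 50 after each start were searched on both strands. A CArG box lay in 535 of 32851 promoters (1.63%). Counted per gene, it lay in 193 of 12115 tested genes with a promoter (1.59%). By that count it lay in 4 of 18 genes of the serum response factor and YAP list and in 2 of 19 immediate early genes. It lay in 2 of 21 skeletal muscle genes, in 1 of 10 smooth muscle genes and in 0 of 18 cartilage matrix genes. Among 193 tested genes with such a box 27.5% rose and 18.1% fell, against 21.9% and 17.1% of all genes tested. The latter shares include genes without a promoter in the search. The shares among the 12115 genes with a promoter were not computed, so no difference is read from these values. The cAMP response element TGACGTCA lay in 1.79% of all promoters. Counted per gene, it lay in 3.16% of tested genes with a promoter and in 2 of 19 immediate early genes. A match is a description of the letters in these windows only.

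**Figure D1:**
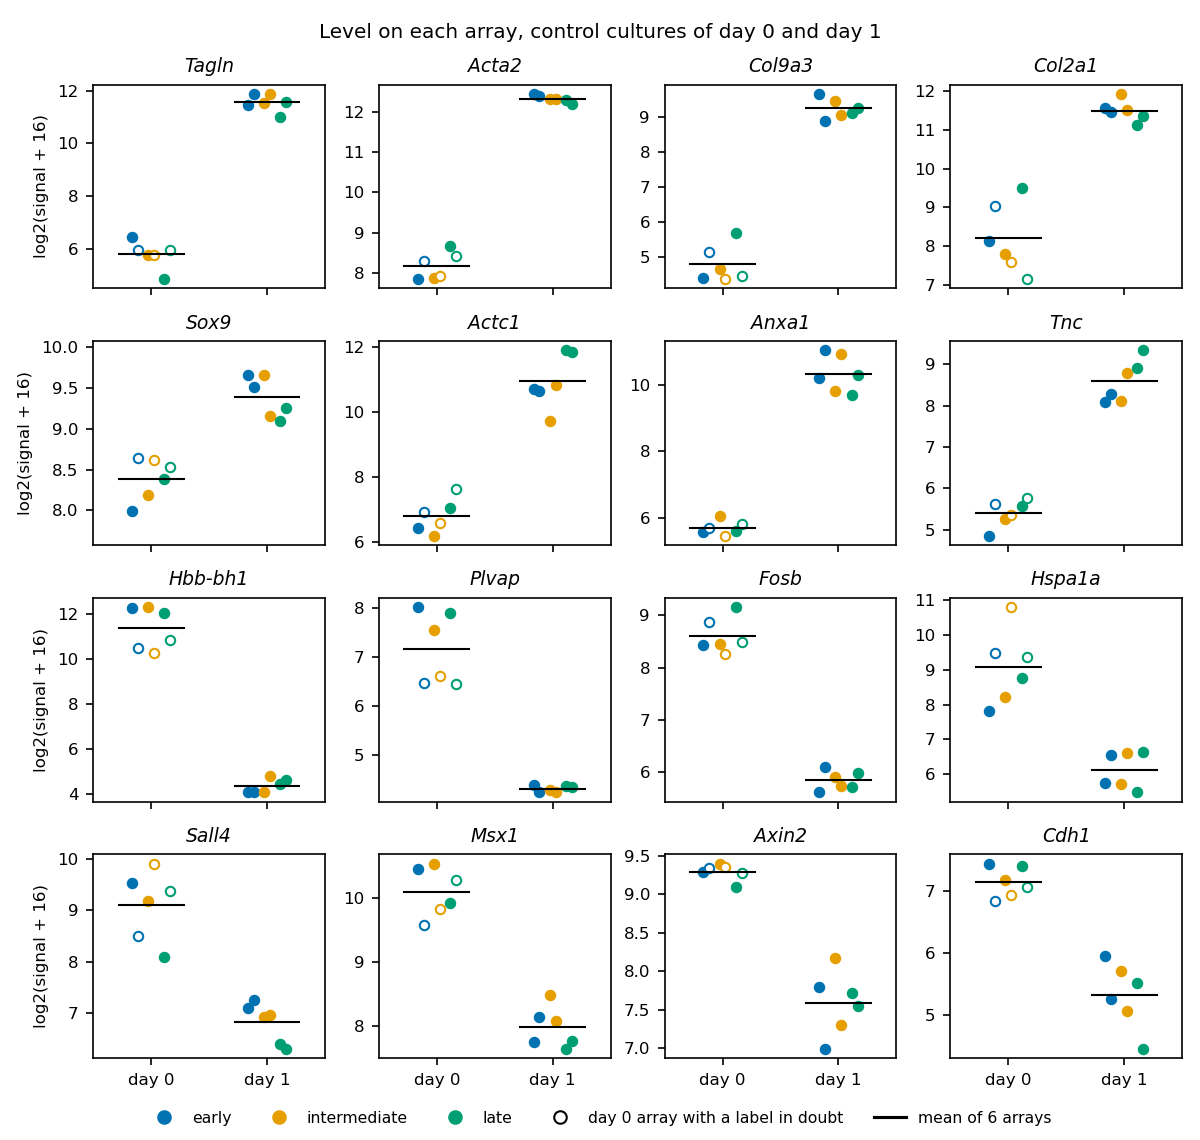
Level of 16 genes on each of the 12 arrays, log2(signal + 16), at day 0 and day 1; colours give the labelled population, open circles the 3 day 0 arrays with labels in doubt, and the line the mean of 6 arrays. Tagln went from 4.85 to 6.44 at day 0 to 10.98 to 11.88 at day 1, and Hbb-bh1 from 10.30 to 12.33 to 4.09 to 4.82.

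Genes of cell attachment rose with these, and none of the 19 tested fell: 15 rose, with a median change of 0.76 (10 without the 3 doubted day 0 arrays). Talin (Tln1), which ties integrins to actin, was counted as a rise of 1.36 by its brightest probe set, while another fell by 1.17 (adjusted p = 2.94e-07). Tenascin C (Tnc), an adhesion-modulating matrix protein, was at 4.85 to 5.77 at day 0 (median 5.47) and at 8.08 to 9.34 at day 1 (median 8.55), a rise of 3.18 (SE 0.21, adjusted p = 4.46e-08). Caveolin 1 (Cav1), which forms membrane pits, rose by 2.56 (SE 0.32, adjusted p = 1.73e-05). The focal adhesion partners Parva and Ilk rose by 1.63 and 1.31, with adjusted p = 1.26e-07 and 1.64e-06. Several of the largest rises over all genes belonged to no list, among them the membrane protein Tm4sf1, which was at 4.12 to 4.22 on every day 0 array and at 8.03 to 9.67 at day 1 (median 9.12). The phospholipid-binding protein Anxa1 was at 5.47 to 6.07 at day 0 (median 5.66) and at 9.69 to 11.03 at day 1 (median 10.24), and the calcium-binding protein S100a6 rose by 3.73 (SE 0.26, adjusted p = 7.25e-08). The TEAD cofactor Vgll3 rose by 3.70 (SE 0.29) and the serine protease Prss23 by 3.81 (SE 0.27).

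**Figure D2:**
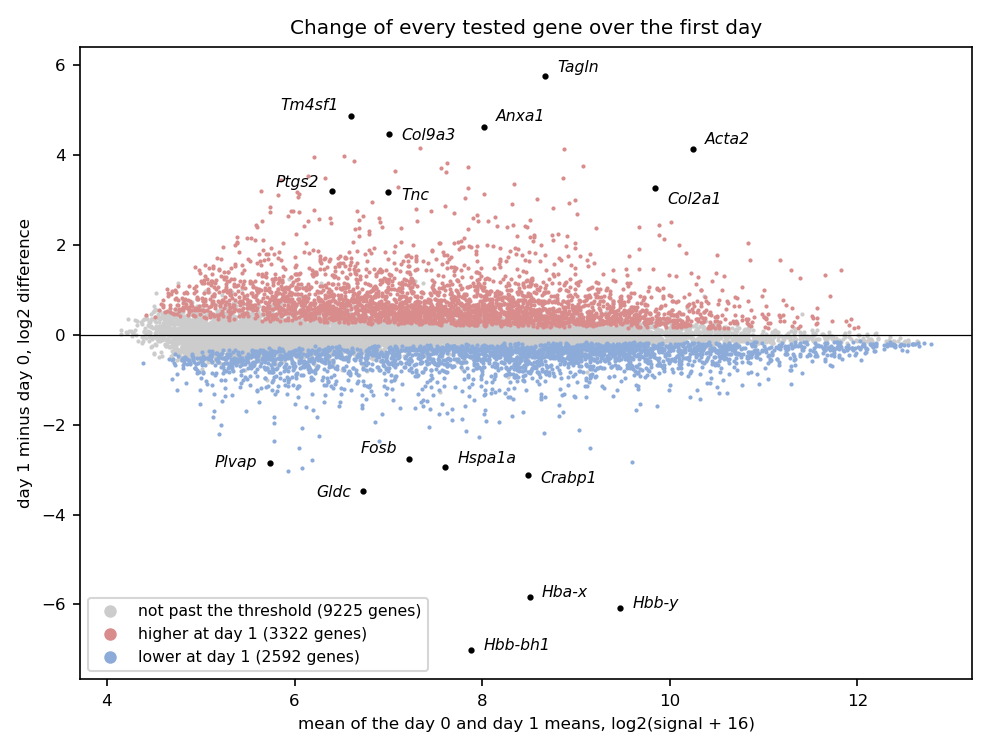
Change of each of the 15139 genes tested (day 1 minus day 0, log2) against its mean level over both days; red, the 3322 genes that rose, blue, the 2592 that fell, grey, the rest. Tagln lies at the top at 5.76 and the embryonic globin Hbb-bh1 at the bottom at -7.02.

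Cartilage genes were well above their day 0 level after 1 day. Of 24 tested cartilage matrix genes 16 rose and 1 fell, with a median change of 0.98. Type II collagen (Col2a1), the main cartilage collagen, was at 7.16 to 9.50 at day 0 (median 7.98) and at 11.11 to 11.92 at day 1 (median 11.48), a rise of 3.27 (SE 0.31, adjusted p = 1.28e-06). The 3 chains of type IX collagen, which coats type II fibrils, rose by 2.05 (Col9a1), 3.43 (Col9a2) and 4.46 (Col9a3). Col9a3 was at 4.36 to 5.67 at day 0 (median 4.56), near no signal on most arrays, and at 8.89 to 9.66 at day 1 (median 9.19, adjusted p = 2.59e-09). Matrilin 4 (Matn4) rose by 4.15 (SE 0.24, adjusted p = 1.23e-08) and Papss2, which makes the sulfate donor for cartilage proteoglycans, by 3.65 (SE 0.27, adjusted p = 1.16e-07). None of these genes had a day 1 value inside its day 0 range.

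Later cartilage genes changed less on this scale. Aggrecan (Acan), the main cartilage proteoglycan, was at 5.63 to 6.0 at day 0 (median 5.77) and at 6.33 to 7.02 at day 1 (median 6.79), a rise of 0.94 (SE 0.13, adjusted p = 4.25e-05). Matrilin 1 (Matn1) was at 4.39 to 5.26 at day 0 and at 5.15 to 6.24 at day 1, with groups that overlapped, and rose by 0.78 (SE 0.19, adjusted p = 0.00497). Its mean was 9.58 in the 6 control arrays of day 2. The member that fell was Hapln1, the link protein that ties aggrecan to hyaluronan, by 0.89 (SE 0.14, adjusted p = 0.000124), and its day 2 mean of 8.79 was above both earlier means.

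Transcription factors of cartilage differed in size of change: 9 of 14 tested rose and 0 fell, with a median change of 0.47 (6 without the 3 doubted day 0 arrays). Sox9, the factor needed for cartilage formation, was at 7.99 to 8.64 at day 0 (median 8.46) and at 9.09 to 9.66 at day 1 (median 9.38), a rise of 1.00 (SE 0.13, adjusted p = 2.31e-05). A dimmer probe set of Sox9 gave 0.34 (adjusted p = 0.232) and another 0.95 (adjusted p = 0.000436). Its partner Sox6 rose by 2.54 (SE 0.25, adjusted p = 1.59e-06). The forkhead factors Foxc1 and Foxc2 rose by 2.82 (SE 0.23) and 2.56 (SE 0.31), and Mef2c, which acts in cartilage and in muscle, by 2.05 (SE 0.17). Sox9 was thus already well above background on every day 0 array, where Foxc2 was at 4.59 to 6.41. Of 13 genes of condensation and adhesion 5 rose, among them the cell adhesion molecule Ncam1 by 0.94 (SE 0.10) and the hyaluronan receptor Cd44 by 1.73 (SE 0.14). Of the other probe sets of Ncam1 1 did not pass, with a change of -0.02 (adjusted p = 0.962).

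Fibrous matrix and its processing enzymes rose beside cartilage matrix. Of 19 collagens outside cartilage 8 rose and 3 fell (median 0.46), and of 15 genes of collagen processing 12 rose and 0 fell (median 0.77). Col8a1, a short-chain collagen, was at 4.11 to 5.33 at day 0 (median 4.31) and at 7.94 to 8.78 at day 1 (median 8.66). The fibril nucleator Col5a1 rose by 1.65 (SE 0.14, adjusted p = 4.42e-07), and the crosslinking oxidase Loxl1 by 2.59 (SE 0.23, adjusted p = 6.59e-07). The collagens that fell were Col4a1, Col15a1 and Col18a1, which belong to basement membranes. Col18a1 was at 8.66 to 9.76 at day 0 (median 9.19) and at 7.24 to 7.56 at day 1 (median 7.48), a change of -1.80 (SE 0.15, adjusted p = 3.79e-07).

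Of 19 tendon and fibrous matrix genes 11 rose and 1 fell (median 0.61). The matricellular protein Sparc rose by 2.99 (SE 0.19, adjusted p = 2.80e-08), the TGF-beta-induced adhesion protein Tgfbi by 2.44 (SE 0.21, adjusted p = 3.84e-07) and periostin (Postn) by 1.87 (SE 0.16, adjusted p = 3.49e-07). The small leucine-rich protein Ogn was at 4.05 to 5.09 at day 0 (median 4.42) and at 6.78 to 8.48 at day 1 (median 7.62). Defining tendon genes moved less: Scx, the tendon factor, changed by 0.61 (SE 0.17, adjusted p = 0.00829; adjusted p = 0.065 without the 3 doubted day 0 arrays), and Tnmd by 0.32 (adjusted p = 0.212). Of 18 matrix proteases and inhibitors 12 rose and 1, the gelatinase gene Mmp2, fell (median 0.96). The aggrecan-cleaving protease Adamts5 was at 5.20 to 6.07 at day 0 (median 5.70) and at 7.24 to 8.42 at day 1 (median 8.01), and the inhibitor Timp1 rose by 1.13 (SE 0.11, adjusted p = 2.04e-06).

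**Figure D3:**
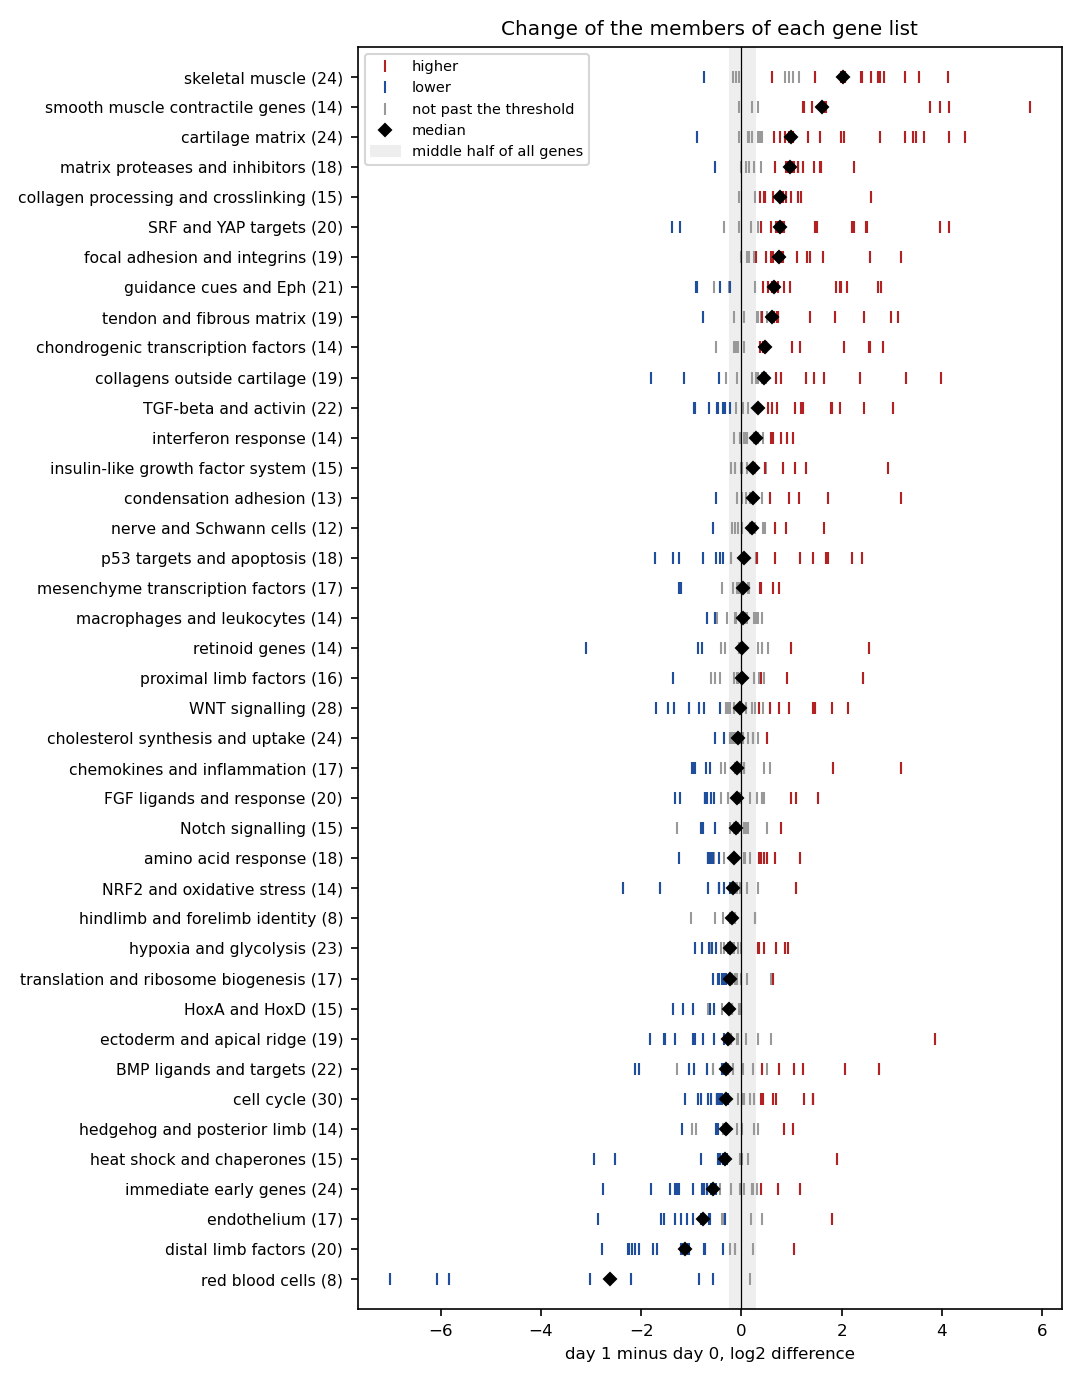
Change of each tested member of 41 gene lists (day 1 minus day 0, log2), with the number tested in brackets; red ticks rose, blue ticks fell, grey ticks did not pass the threshold, the diamond is the median of the list, and the grey band holds the middle of all genes. Medians ran from 2.03 for skeletal muscle to -2.62 for red blood cells.

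Of 24 tested skeletal muscle genes 16 rose and 1 fell, with a median change of 2.03, and 10 rose without the 3 doubted day 0 arrays (median 1.92). On the replicate 1 arrays alone 10 of the 24 rose, where 14.4% of all genes tested rose. On the replicate 2 arrays alone 4 of the 24 rose, near the 14.9% of all genes tested that rose there. The median change was 2.09 and 1.93 in these fits. The single member that fell was Pax3, a factor of migrating muscle precursors, whose call was lost without the doubted arrays, or without the late 1 or early 2 array of day 0 or an intermediate array of day 1. Cardiac actin Actc1, also made in embryonic skeletal muscle, was at 6.2 to 7.64 at day 0 (median 6.75) and at 9.73 to 11.89 at day 1 (median 10.76), a rise of 4.13 (SE 0.33, adjusted p = 2.27e-07). The myosin light chain Myl1 was at 4.33 to 4.46 on all day 0 arrays, near no signal, and at day 1 at 5.36 and 7.90 in early, 6.78 and 7.01 in intermediate, and 10.17 and 10.27 in late cultures (rise 3.54, SE 0.66, adjusted p = 0.00055). The late arrays were thus the highest. The muscle regulators Myog and Myod1 followed the same order, with 9.75 to 9.88 for Myog and 9.75 to 9.79 for Myod1 in the late cultures of day 1 and at most 7.83 and 8.42 in the others. Myog rose by 2.39 (SE 0.50, adjusted p = 0.00137) and Myod1 by 2.00 (SE 0.51, adjusted p = 0.00549; 0.0595 without the 3 doubted day 0 arrays). The precursor markers Myf5 and Pax7 did not pass the threshold, with changes of 1.02 (adjusted p = 0.112) and -0.11 (adjusted p = 0.712).

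By the F test of the interaction, 705 of 15139 genes tested had an unadjusted p below 0.05, no more than chance alone would give. Only 2 genes (0.0132%) had changes that differed between the populations past the adjusted threshold. Both had their largest rise in the late population: Mybph, a myosin-binding protein of muscle, changed by 0.19 in early, 0.21 in intermediate and 3.08 in late cultures, and the phosphoprotein gene Arpp21 by 0.58, 0.11 and 2.71 (SE 0.25 and 0.21, adjusted p = 0.0363 for both). The count did not hold when single arrays were left out, where it ranged from 0 to 11, or with a pseudocount of 1, where it was 0. Next by this test, all at an adjusted p of 0.145, came Zap70, Ngfr, Mymk, Zdhhc14, Hjv, Ttn, Pnmal2 and Eomes. Of these, Mymk codes for the fusion protein of myoblasts and Ttn for the giant sarcomere protein. Eomes rose most in intermediate cultures, by 2.73 against 1.16 in late. Myl1 and Myog had late changes of 5.82 and 3.80 against 2.26 and 1.47 in early cultures, and their interaction did not pass (adjusted p = 0.381 and 0.757). Within single populations 1219 genes (8.05%) rose and 737 (4.87%) fell in early, 1754 (11.6%) and 1026 (6.78%) in intermediate, and 1533 (10.1%) and 866 (5.72%) in late cultures. These values rest on the labels, 3 of which are in doubt.

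**Figure D4:**
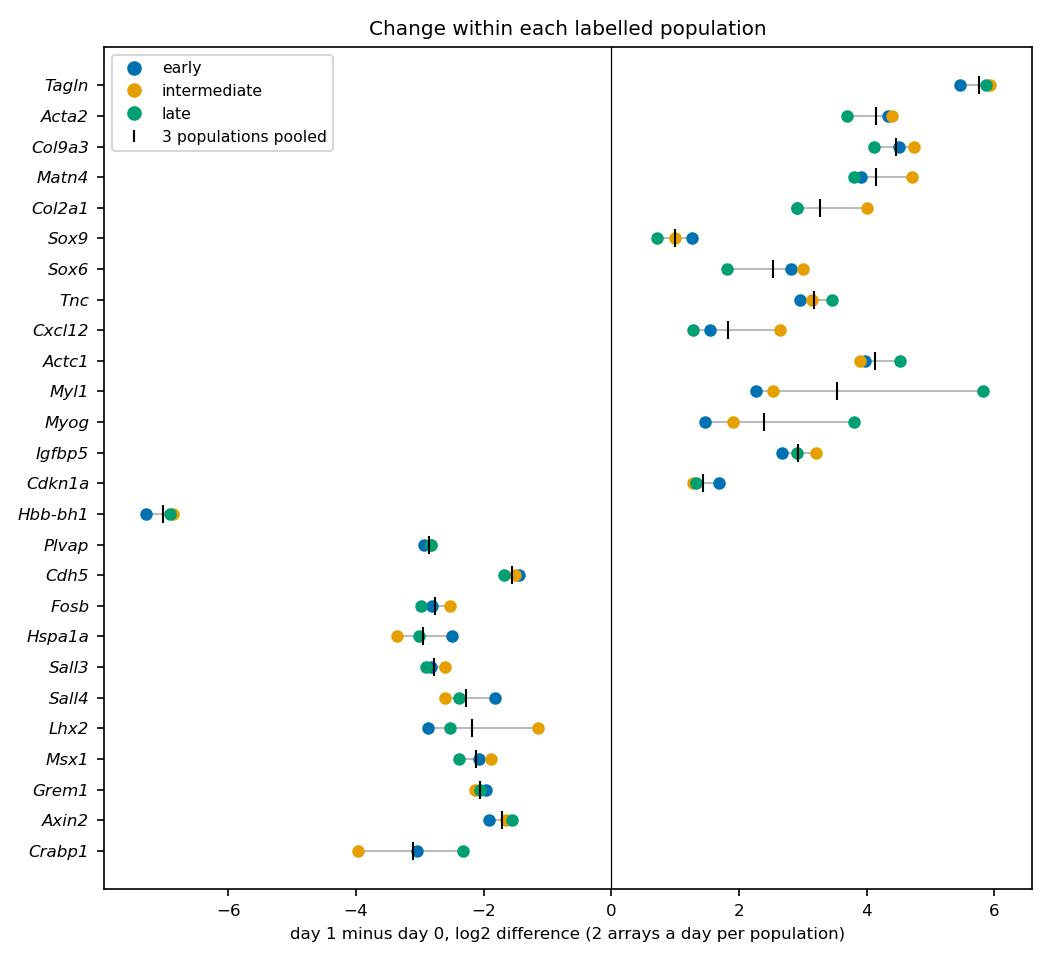
Change of 26 genes (day 1 minus day 0, log2) within the early, intermediate and late population as labelled, 2 arrays a day each, with the pooled change as a black bar. Most genes lie close together; Myl1 spreads from 2.26 in early to 5.82 in late, and Myog from 1.47 to 3.80.

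Red blood cell genes showed the largest falls of the comparison. The embryonic beta globin Hbb-bh1 was at 10.30 to 12.33 at day 0 (median 11.48) and at 4.09 to 4.82 at day 1 (median 4.30), a fall of 7.02 (SE 0.34, adjusted p = 2.80e-09). Its day 1 signal lay below the 40th percentile on all 6 arrays, so the size of the fall depends on the added constant and no fold is given. The globins Hbb-y and Hba-x fell by 6.07 and fell by 5.84, and the red cell membrane exchanger Slc4a1 fell by 3.03 (SE 0.57, adjusted p = 0.000563). Of 8 tested genes 7 fell and 0 rose (median -2.62). Their summed signal was 7440 to 18000 at day 0 and 133 to 347 at day 1. Genes with signal at day 0 alone could enter the test. Alas2 was above the 40th percentile on 3 day 0 arrays and on 0 day 1 arrays. For Hbb-bh1 these counts were 6 and 0, and for Hba-x 6 and 3. For a member that entered through day 0 arrays only, a fall is partly built into the choice. The count of falls therefore only describes the list. With a stricter filter on dim genes, which left fewer to test, 3 fell. How many of the 8 it left was not counted, so the 3 cannot be read as a share. In bulk cultures fewer cells of a type and less RNA per cell cannot be told apart, here and for every cell type below.

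Endothelial genes fell as well, 12 of 17 tested, with a median change of -0.77. The stricter filter left 10869 genes in all to test, of which 2296 fell, 4 of them endothelial. How many of the 17 endothelial genes it left to test was not counted, so the 4 cannot be read as a share. The vessel-lining protein Plvap was at 6.45 to 8.02 at day 0 (median 7.08) and at 4.23 to 4.38 at day 1 (median 4.31), near no signal, and fell by 2.86 (SE 0.26, adjusted p = 8.75e-07). The endothelial cadherin Cdh5 fell by 1.55 (SE 0.20, adjusted p = 2.45e-05) and the adhesion molecule Pecam1 by 1.08 (SE 0.16, adjusted p = 8.21e-05). The apelin receptor Aplnr, which was on no list, fell by 2.96 (SE 0.31). The growth factor receptor Kdr did not pass the threshold (change -0.39, adjusted p = 0.123). The member that rose was Erg, a factor of endothelium and also of cartilage, by 1.81 (SE 0.20, adjusted p = 4.35e-06), and its 6 day 1 values of 6.95 to 8.35 lay above its day 0 range. A dimmer probe set of Erg did not pass (change 0.03, adjusted p = 0.883).

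Both groups split by replicate number at day 0, and the split fell on the same 3 arrays whose labels are in doubt. Hbb-bh1 was at 12.08 to 12.33 on the replicate 1 arrays and at 10.30 to 10.88 on the replicate 2 arrays, and Plvap at 7.55 to 8.02 and 6.45 to 6.61. On 6 of 8 red cell genes and 11 of 17 endothelial genes all 3 replicate 1 arrays lay above all 3 replicate 2 arrays, against 7.37% of all genes tested, and 7.21% lay the other way. Within replicate 1 alone 2177 genes rose (14.4%) and 1511 fell (9.98%), and there 7 red cell and 12 endothelial genes fell. Within replicate 2 alone 2251 rose (14.9%) and 1638 fell (10.8%), and there 4 red cell and 6 endothelial genes fell. Hbb-bh1 fell by 8.0 within replicate 1 and by 6.05 within replicate 2 (adjusted p = 5.20e-08 and 2.64e-06), and Plvap fell by 3.48 and by 2.24. Of 14 macrophage genes 2 fell and 0 rose (1 fell without the doubted arrays), with Csf1r at 7.59 to 8.32 at day 0 and 7.64 to 8.09 at day 1 and C1qa near no signal on both days. Of 12 nerve and Schwann cell genes 3 rose and 1 fell (2 and 0 without the doubted arrays). The neuregulin receptor Erbb3 rose by 1.64 (SE 0.18, adjusted p = 4.75e-06), and the Schwann cell factor Sox10 did not pass (change -0.06, adjusted p = 0.792), while a dimmer probe set of it fell by 0.57 (adjusted p = 0.0448).

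Ectoderm genes fell in 9 of 19 cases and rose in 1, with a median change of -0.27. The epithelial cadherin Cdh1 was at 6.84 to 7.45 at day 0 (median 7.13) and at 4.45 to 5.95 at day 1 (median 5.39), a fall of 1.82 (SE 0.21, adjusted p = 7.73e-06). The splicing regulator of epithelia Esrp1 fell by 1.53 (SE 0.23) and the ectodermal factor Tfap2a by 1.55 (SE 0.16). The ridge signal Fgf8 was at 4.43 to 6.55 at day 0 (median 6.22) and at 4.08 to 5.24 at day 1 (median 4.39), with overlapping groups (change -1.32, SE 0.36, adjusted p = 0.00801). Krt14 did not pass (change 0.60). The probe sets of Epcam, an epithelial adhesion molecule, disagreed: the brighter did not pass (change -0.25), and the dimmer fell by 1.90 (adjusted p = 3.45e-05). The exception was the keratin Krt19, at 4.27 to 5.13 at day 0 (median 4.72) and at 7.07 to 9.75 at day 1 (median 8.38), a rise of 3.86 (SE 0.37, adjusted p = 1.37e-06).

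Genes that mark undifferentiated distal mesenchyme fell. Of 20 tested 15 fell and 1 rose, with a median change of -1.12, and 12 fell and 0 rose without the 3 doubted day 0 arrays. The zinc finger factors Sall3 and Sall4 fell by 2.78 (SE 0.33, adjusted p = 9.92e-06) and 2.27 (SE 0.27, adjusted p = 8.83e-06). Sall4 was at 8.09 to 9.91 at day 0 (median 9.27) and at 6.31 to 7.27 at day 1 (median 6.95). The homeobox gene Msx1 was at 9.57 to 10.53 at day 0 (median 10.09) and at 7.64 to 8.48 at day 1 (median 7.92), a fall of 2.12 (SE 0.17, adjusted p = 3.08e-07). Grem1, a BMP antagonist of the distal bud, fell by 2.05 (SE 0.19, adjusted p = 8.58e-07). The 6 day 1 values of each of these 4 genes lay below its day 0 values. Wnt5a and Hmga2 did not pass, with changes of -0.23 and -0.12. The member that rose was Dlx5, a homeobox factor, by 1.05, a call that was lost without the intermediate 2, late 1, early 1 or early 2 array of day 0, or the intermediate 2, late 1 or late 2 array of day 1.

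Position genes moved less as a group. Of 15 HoxA and HoxD genes 5 fell and 0 rose (median -0.25), and 3 fell without the doubted arrays, or without the late 2 array of day 0 or of day 1 alone. Hoxa9 was at 11.00 to 11.22 at day 0 and at 9.84 to 10.13 at day 1 (change -1.17, SE 0.06, adjusted p = 6.43e-09). Hoxa11 and Hoxa13 did not pass (changes -0.19 and -0.01). Hoxd13, at 9.37 to 11.16 at day 0 and 7.69 to 10.73 at day 1, changed by -1.36 (SE 0.48, adjusted p = 0.035), and lost its call without the doubted arrays (adjusted p = 0.106) and when any single 1 of 6 arrays was left out: intermediate 1 or late 2 of day 0, or a late or early array of day 1 (adjusted p = 0.0592 to 0.0814). Of 16 proximal factors 3 rose and 1 fell: Osr1, a factor of connective tissue, rose by 2.42 (SE 0.38, adjusted p = 0.000114), Tbx18 by 0.90 and Pbx3 by 0.40, and Alx1 fell by 1.37. Pbx3 lost its call without the doubted arrays (adjusted p = 0.0757). Of 8 limb identity genes such as Pitx1 and Tbx5, limma called 0, and 0 had an unadjusted p below 0.05. The pooled fit counts the difference between hindlimb and forelimb arrays as spread for such genes, which makes a call unlikely. With a population block 1 of the 8 was called lower. The same count was reached with all 30 arrays, without the intermediate 1 array of day 0, and within the early population.

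Of 17 general mesenchyme genes 4 rose and 2 fell, and the 2 that fell were Twist1 and Prrx2. Only 2 rose when the intermediate 1, intermediate 2 or late 2 array of day 0 or the early 1 array of day 1 was left out, and 0 rose on the replicate 2 arrays alone. Twist1 was at 10.42 to 10.77 at day 0 and at 9.23 to 9.60 at day 1, a change of -1.24 (SE 0.08, adjusted p = 2.29e-08), and Prrx2 fell by 1.21 (SE 0.17, adjusted p = 4.43e-05). Prrx1 rose by 0.39 (SE 0.09, adjusted p = 0.00309), and 5 dimmer probe sets of it did not pass, with changes from -0.18 to 0.28. The receptor Pdgfra was at 10.28 to 10.98 and 10.36 to 11.13, with no difference past the threshold (adjusted p = 0.866), and a dimmer probe set of it fell by 1.82. Outside the lists, Igdcc3, a cell-surface protein, and Gldc, the glycine decarboxylase, were among the 15 largest falls, at -2.84 (SE 0.19, adjusted p = 3.45e-08) and -3.47 (SE 0.35, adjusted p = 1.96e-06).

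Among FGF pathway genes 3 of 20 tested rose and 7 fell (median -0.09). The ligand Fgf10 of the distal bud changed by -0.73 (SE 0.24, adjusted p = 0.0251), with overlapping groups and no call without the doubted arrays (adjusted p = 0.115) or without the intermediate 2 array of day 0, the late 1 array or the early 1 array of day 1 (adjusted p = 0.0544 to 0.0612). The receptor gene Fgfr2 rose by 1.53 (SE 0.20, adjusted p = 2.57e-05), from 7.85 to 9.09 at day 0 to 9.75 to 10.18. The pathway inhibitors Il17rd and Spred2 fell by 1.22 and 0.60. Of the response genes, Dusp6 and Spry4 did not pass (changes -0.06 and 0.42), while Etv4 fell by 0.72. A dimmer probe set of Etv4 did not pass (change 0.15, adjusted p = 0.446).

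For hedgehog, 2 of 14 tested rose and 5 fell (3 without the doubted arrays, and 3 on the replicate 1 arrays alone). The ligand Shh was at 7.18 to 7.99 at day 0 (median 7.66) and at 5.88 to 7.16 at day 1 (median 6.21), a change of -1.18 (SE 0.23, adjusted p = 0.000804). The highest Shh values of day 1 were those of the 2 late arrays, 7.04 and 7.16, and the test of a difference between populations did not pass (interaction adjusted p = 0.473). The receptor and target Ptch1 fell by 0.51 (SE 0.10, adjusted p = 0.000915), and the coreceptors Boc and Cdon rose by 1.02 and 0.85. For WNT, 8 of 28 rose and 7 fell (median -0.03), and 5 rose without the doubted arrays. The canonical targets Axin2 and Lef1 fell by 1.71 (SE 0.15, adjusted p = 5.93e-07) and 1.05 (SE 0.13, adjusted p = 1.57e-05), and Fzd10, a receptor, by 1.34 (SE 0.12). The secreted WNT antagonist Sfrp2 rose by 2.13 (SE 0.21, adjusted p = 1.71e-06). Axin2 was at 9.09 to 9.40 at day 0 and at 6.99 to 8.17 at day 1.

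For BMP, 6 of 22 rose and 7 fell (median -0.30). The joint and cartilage ligand Gdf5 was at 4.84 to 5.67 at day 0 (median 5.34) and at 7.04 to 9.58 at day 1 (median 7.85), highest in the 2 intermediate arrays, a rise of 2.75 (SE 0.34, adjusted p = 1.39e-05). The BMP antagonist Chrdl1 rose by 2.07 (SE 0.19, adjusted p = 7.14e-07). The response gene Id1 and the ligand Bmp2 did not pass (changes -0.32 and -0.56). For TGF-beta and activin, 11 of 22 rose and 8 fell (median 0.34). The ligand Tgfb2 was at 6.05 to 7.99 at day 0 (median 7.01) and at 9.95 to 10.22 at day 1 (median 10.09), a rise of 3.02 (SE 0.26, adjusted p = 3.90e-07), and Tgfb3 rose by 1.78 (SE 0.18, adjusted p = 1.83e-06). The pathway inhibitor Skil fell by 0.64 (SE 0.06, adjusted p = 1.20e-06).

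For retinoids, 2 of 14 rose and 3 fell. The retinoic acid-making enzyme Aldh1a2 was at 5.41 to 6.69 at day 0 (median 6.11) and at 7.89 to 10.04 at day 1 (median 8.26), a rise of 2.54 (SE 0.34, adjusted p = 3.05e-05). The retinoic acid-binding protein Crabp1 was at 9.43 to 11.05 at day 0 (median 9.96) and at 6.31 to 7.57 at day 1 (median 6.88), a fall of 3.11 (SE 0.27, adjusted p = 4.73e-07). Of 15 Notch genes 1 rose and 3 fell (0 and 2 without the doubted arrays), and the target Hes1 did not pass (change 0.09). Of 21 guidance genes 13 rose and 4 fell (median 0.66), with Sema3d and Sema3e up by 2.79 (SE 0.24) and 2.73 (SE 0.21) and the repellent Slit2 and the netrin receptor Unc5c by 2.10 and 1.99. Of 15 genes of the insulin-like growth factor system 6 rose and 0 fell (median 0.23). The binding protein Igfbp5 rose by 2.93 (SE 0.20, adjusted p = 3.94e-08), while the ligand Igf2 was at 11.95 to 12.25 and at 12.02 to 12.19 (change 0.02, adjusted p = 0.759). A dimmer probe set of Igf2 rose by 1.01 (adjusted p = 0.00035).

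Immediate early genes, which cells switch on within minutes of a stimulus, were higher at day 0. Of 24 tested 13 fell and 3 rose, with a median change of -0.56, and 8 fell without the 3 doubted day 0 arrays. Fosb was at 8.26 to 9.16 at day 0 (median 8.47) and at 5.61 to 6.10 at day 1 (median 5.82), a fall of 2.77 (SE 0.15, adjusted p = 5.94e-09). Fos fell by 1.43 (SE 0.18, adjusted p = 1.44e-05), Ier2 by 1.29 (SE 0.09, adjusted p = 9.66e-08) and Klf4 by 1.81 (SE 0.17, adjusted p = 1.05e-06). The members that rose were Fosl2, Btg2 and Ccn1. Egr1 did not move past the threshold, at 9.69 to 11.12 at day 0 and 9.79 to 10.88 at day 1 (change 0.06, adjusted p = 0.867), and neither did Myc (change 0.31, adjusted p = 0.18).

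Heat shock genes were also higher at day 0, with 10 of 15 lower and 1 higher at day 1 (median -0.33). The inducible chaperone Hspa1a was at 7.82 to 10.81 at day 0 (median 9.07) and at 5.48 to 6.64 at day 1 (median 6.15), a fall of 2.95 (SE 0.40, adjusted p = 3.47e-05). Its day 0 values were 7.82 to 8.76 on the replicate 1 arrays and 9.38 to 10.81 on the replicate 2 arrays, and at day 1 the same order held, with 5.48 to 5.75 and 6.56 to 6.64. It fell by 2.62 within replicate 1 and by 3.29 within replicate 2, and 5 and 9 of the 15 genes fell there. The small chaperone Hspb1 rose by 1.90 (SE 0.19, adjusted p = 2.15e-06). Of 14 genes of oxidative stress 1 rose and 7 fell. The metal-binding proteins Mt1 and Mt2 fell by 2.36 (SE 0.24, adjusted p = 2.19e-06) and 1.63 (SE 0.26, adjusted p = 0.00017), while the antioxidant targets Hmox1 and Nqo1 did not pass (changes 0.34 and 0.00). Of 17 chemokine and inflammation genes 2 rose and 5 fell. The prostaglandin-making enzyme Ptgs2 was at 4.21 to 5.02 at day 0 (median 4.92) and at 7.07 to 8.90 at day 1 (median 8.12), and the chemokine Cxcl12 rose by 1.83 (SE 0.26, adjusted p = 4.52e-05).

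Cell cycle genes fell in 17 of 30 cases and rose in 7, with a median change of -0.30. The replication licensing factor Cdt1 was at 11.15 to 11.53 at day 0 and at 10.09 to 10.27 at day 1, a fall of 1.12 (SE 0.07, adjusted p = 2.32e-08), and the checkpoint kinase Bub1 fell by 0.86 (SE 0.08, adjusted p = 7.77e-07). The mitotic kinase Cdk1 did not pass (change 0.06, adjusted p = 0.446). The G1 cyclin Ccnd1 rose by 0.63 (SE 0.06, adjusted p = 1.96e-06), and the cell cycle inhibitors Cdkn1a and Cdkn2b by 1.43 (SE 0.21, adjusted p = 5.88e-05) and 1.25 (SE 0.13, adjusted p = 2.73e-06). Of 18 p53 targets and apoptosis genes 8 rose and 7 fell. Trp53inp1 and Ccng1 rose by 2.40 (SE 0.14) and 2.20 (SE 0.24), and the survival gene Bcl2 by 1.68 (SE 0.12), with Sesn2 down (change -1.24, SE 0.14). Mdm2, another member, also fell, a call that was lost without the 3 doubted day 0 arrays (change -0.46, adjusted p = 0.054). Cdkn1a was at 7.56 to 8.41 at day 0 and at 8.73 to 10.04 at day 1.

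Of 24 cholesterol genes 1 rose and 2 fell (1 and 0 without the doubted arrays), and Hmgcs1, which begins the pathway, was at 10.97 to 11.47 and at 11.00 to 11.43 (change -0.06, adjusted p = 0.665). Of 23 hypoxia and glycolysis genes 6 rose and 6 fell (3 without the doubted arrays). The vessel growth factor Vegfa fell by 0.92 (SE 0.11, adjusted p = 1.35e-05) and the glycolytic enzyme Pkm by 0.79 (SE 0.10, adjusted p = 1.84e-05), and the glucose transporter Slc2a1 did not pass (change 0.00, adjusted p = 0.994). Of 18 amino acid response genes 6 rose and 7 fell (4 and 4 without the doubted arrays), and of 17 translation and ribosome biogenesis genes 1 rose and 9 fell (median -0.23). Of 14 interferon genes 5 rose and 0 fell, among them B2m, the light chain of MHC class I, by 1.03 (SE 0.08, adjusted p = 1.11e-07).

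Levels on the remaining arrays are given for orientation, without a test. In control cultures of day 2 the means of Tagln, Acta2 and Cnn1 were 11.14, 12.21 and 8.22, against 11.55, 12.32 and 8.19 at day 1. The contractile genes were at day 2 near where they stood at day 1. Cartilage genes were at 10.41 (Col9a3), 8.02 (Acan) and 9.58 (Matn1) at day 2, against 9.24, 6.73 and 5.69 at day 1. Hbb-bh1 and Plvap were at 4.12 and 4.37 at day 2, near no signal. Among falling genes, Sall4 was at 5.74 at day 2 against 6.83 at day 1, while Klf4 was at 9.52 against 7.91 at day 1 and 9.72 at day 0. In BMP4 cultures of day 1 Msx1 had a mean of 9.2, against 7.98 in control cultures of that day and 10.09 at day 0, and Prrx2 a mean of 10.30 against 9.06 and 10.27. Tagln in BMP4 cultures was at 11.61 and Hbb-bh1 at 4.42, close to the controls of day 1.

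**Figure D5:**
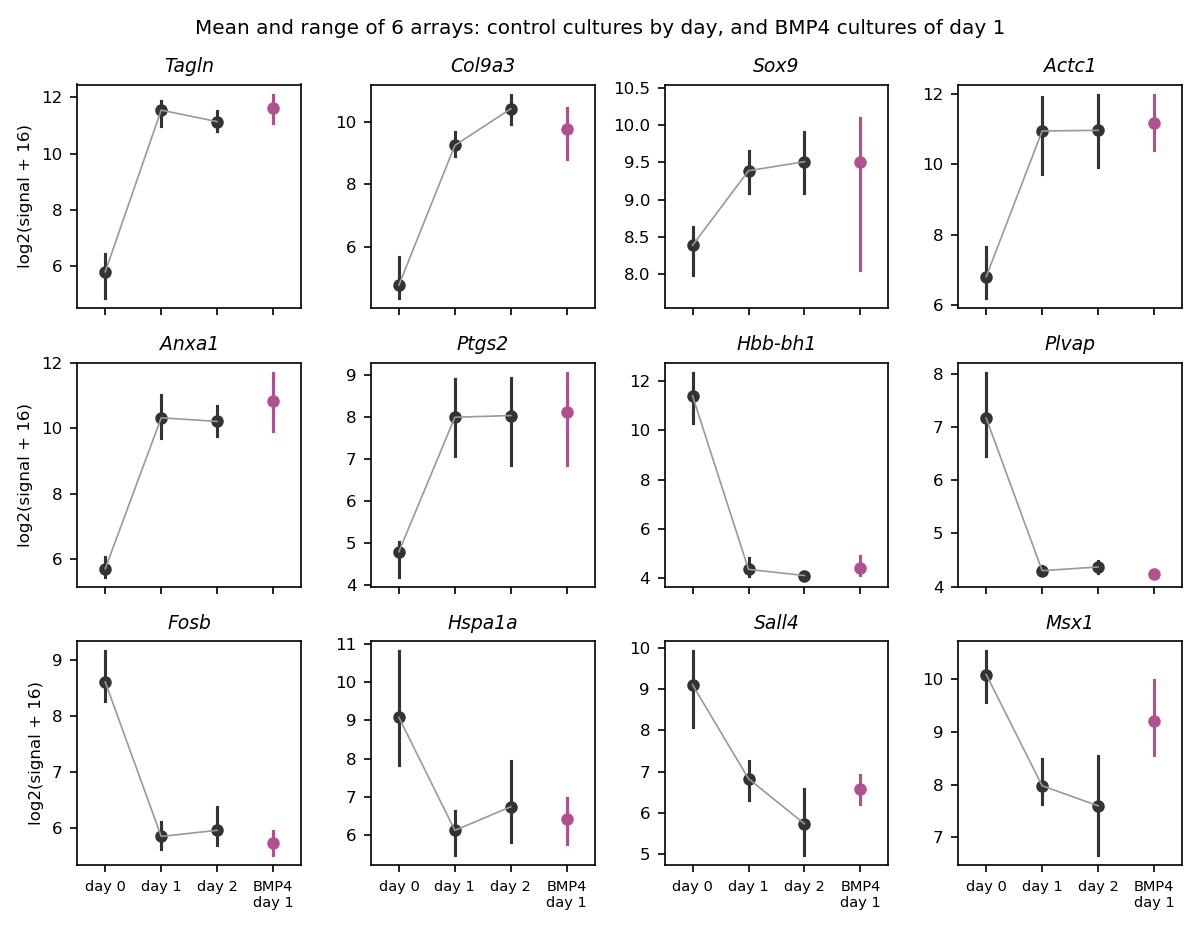
Mean (point) and range (line) over 6 arrays of 12 genes, log2(signal + 16), in control cultures of day 0, 1 and 2 joined by a thin line, and in BMP4 cultures of day 1 in purple. Tagln means were 5.79, 11.55 and 11.14, and Msx1 was at 9.2 with BMP4 against 7.98 without it at day 1.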

How the data were processed

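Labelled RNA was hybridised to Affymetrix mouse genome arrays. MAS5 made the linear intensity that the authors deposited, per the submitters' processing notes; its settings were not found in these sources. Every array's trimmed mean is 150. The number of arrays, 6 a day, limits the precision.

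The deposited intensity was used as log2(signal + 16) without further scaling. Of 45101 probe sets 27589 with 1 gene symbol lay above their array's 40th percentile on at least 2 of 30 arrays, and the brightest per gene gave 15139 genes. The 12 arrays were fitted with limma 3.58.1 in R 4.3.3 (day only, mean-variance trend, Benjamini-Hochberg over all genes, 0.05, two-sided, 10 residual and 4.89 prior degrees of freedom). The interaction came from a fit of 6 groups. The code was tested on simulated data.

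The 41 gene lists (771 genes, 700 tested) and all members were chosen with earlier results of these data known, so no set test was run. Named were the 15 largest rises and falls, up to 4 members of each list with the smallest adjusted p, up to 2 more defining members, and a fixed set, 221 genes in all. 1 gene of the fixed set is not reported here. Vcl, Filip1l, Amotl2, Hapln1, Col4a1, Col15a1, Mmp2, Pax3, Dlx5, Fosl2, Btg2, Ccn1, Mymk, Ttn, Mybph, Arpp21, Zap70, Ngfr, Zdhhc14, Hjv, Pnmal2, Eomes, Etv4 and Tln1 were added after their values were seen. Of 170 other probe sets of those of the 221 genes that passed, 12 had the opposite sign, 1 of them past the threshold (Srxn1, -0.68, adjusted p = 0.0421). These counts leave out the genes added later, among which Tln1 also had a probe set past the threshold the opposite way. Promoter sequences are from RefSeq.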

Additional observations from a re-analysis of the deposited data

Results flagged for a closer look

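In the 442 sets of 6 arrays (221 named genes on 2 days) 15 held an array that stood apart from the other 5 by more than Dixon's limit, while chance flags about 1 group in 20. Levels are log2(signal + 16). Cnn1 at day 0, Esrp1 at day 1 and Ptgs2 at day 0 lie near the level of no signal, where an order has no meaning.

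At day 0 the array labelled early 2 stood apart with Cnn1 at 4.47, and with Col6a1 at 6.99 and Actg2 at 5.82, these last the highest of their day. The late 1 array stood apart with Phlda3 at 7.78 and Igfbp5 at 8.30, and the intermediate 1 array with the lowest Prrx1, 10.47, and with Ptgs2 at 4.21.

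At day 1 the intermediate 1 array stood apart with Sall3 at 6.17 and Id1 at 10.76, both highest, and with P4ha2 at 7.65 and Mrc1 at 5.13, both lowest. Tgfb3 was highest at 9.33 in intermediate 2, Esrp1 was at 4.69 in early 1, Srf was lowest at 8.21 in late 1, and Lfng was highest there at 7.55.

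The change over the first day differed between the populations for Arpp21 and Mybph (interaction adjusted p = 0.0363 for both), with the largest rise of each in the late population.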

How the results depend on the processing

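Of the 180 named genes that passed, all kept their direction under every alternative that gave them a value, except Mvd within the late population (0.02, adjusted p = 0.968); the stricter filter left 166 of them. Pdgfra, which did not pass, fell by 0.62 with the mean of all probe sets (adjusted p = 0.000501). Counts of genes higher and lower stayed within 1.5 times of 3322 and 2592 except with fewer arrays: 1219 and 737 within early, 1754 and 1026 within intermediate, 1533 and 866 within late, 2177 and 1511 on replicate 1 arrays alone, and 1638 lower on replicate 2 arrays alone (2251 higher there). The fits by replicate number were added after the data were seen. Leaving out each array in turn gave 3063 to 3261 higher and 2347 to 2490 lower. Median centring gave 3390 higher and 2053 lower. Of the 180 genes 15 lost their call without the 3 doubted day 0 arrays. The 2 interaction genes became 0 with a pseudocount of 1, 1 without the doubted arrays and 0 with a replicate block, and 0 to 11 when single arrays were left out. With the replicate block 3403 genes were higher and 2696 lower. The labels do not say whether same-numbered arrays are pairs. Day 0 and day 1 arrays of the same label correlated in their deviations by 0.001 to 0.196 and 3 of these labels are in doubt. Of the 6 day 0 arrays 3 correlated best with their own label and 5 with an array of their own number, a hint from the data. Levels near 4 have no signal above background and carry no order.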
